A study of Labeotropheus fuelleborni and Maylandia zebra with 12 samples.

Results

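The genes described here are 5 members of the FGF and Notch signalling pathways, the FGF receptor gene fgfr2, the FGF ligand gene fgf2, the Notch feedback gene nrarp and the Notch ligand genes dld and jag1. They were taken by name from a table of 26490 gene features, each name matching 1 feature, and all 5 were among the 2962 features with enough counts to be tested. RNA was measured in replacement teeth, which are unerupted teeth taken out of their bony crypts in the jaw, and in a ribbon of taste bud-bearing epithelium from the lip side of the outer tooth row of the lower jaw. The 4 groups were tooth of Labeotropheus fuelleborni (replicates 0, 3 and 4), taste bud of L. fuelleborni (replicates 1, 2 and 4), tooth of Maylandia zebra (replicates 0, 1 and 3) and taste bud of M. zebra (replicates 1, 2 and 3). Both are rock-dwelling cichlid fishes of Lake Malawi. The labels name no treatment, strain or age, and do not say whether each library came from its own animal or from a pool, so that the spread behind each p-value is that between libraries and may be partly technical.

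In FGF signalling a secreted ligand binds a receptor tyrosine kinase at the cell surface, and the ETV transcription factors and the Sprouty and Spred inhibitors act downstream of it. In Notch signalling a Delta or Jagged ligand on a cell binds a Notch receptor on its neighbour, the receptor is cut, and its inner part joins RBPJ and a Mastermind protein in the nucleus to turn on targets such as the HES and HEY genes and nrarp. In the mouse, FGF signals pass between dental epithelium and mesenchyme during tooth formation and in the growing incisor, and Notch components are found both in dental epithelium and in taste buds.

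Counts were few for whole transcriptomes. Total counts per library ranged from 72226 to 300663, and 1 count was worth 3.02 to 14.4 CPM. CPM, the scale of every level given here, are counts brought to a common library size with edgeR's TMM factors, and are not divided by gene length. All 10 tooth markers were higher in tooth, and 6 of them had no taste bud count. Of 9 oral keratinocyte markers 8 were higher in taste bud, as were trpm5 and ddc among the 8 taste receptor cell markers. Others of those 8 went against the label, with itpr3 higher in tooth (105 counts in tooth and 12 in taste bud) and plcb2 at 32 and 2 counts. The rest had too few counts to tell. The calhm1 and otop1 genes each had 0 tooth counts and 1 taste bud count, tph1 had 1 and 0, and pkd2l1 had none in either tissue. L. fuelleborni tooth replicate 4 stood apart in its group, with a summed tooth marker level of 42315 CPM against 10938 and 8403 CPM in replicates 0 and 3, and a summed immune marker level of 776 CPM against 181 and 136 CPM. Ribosomal protein genes took 6.31% of counts in this tooth library and 6.36% and 4.05% in taste bud replicates 1 and 2 of the same species. These were the 3 highest shares in a range of 1.39% to 6.36%, so that some results, but not all, are also given without these libraries. In whole tissue, fewer cells of a type and less RNA per cell cannot be told apart. The kit keeps the strand of the RNA, but how the counting treated strand is, in the sources used here, not given, so that reads of a gene and of an antisense partner cannot be told apart.

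The receptor gene fgfr2 and the Notch feedback gene nrarp were higher in tooth than in taste bud, by 2.34-fold and 2.54-fold, whereas fgf2, dld and jag1 did not pass the test. Thus 2 of the 5 genes were higher in tooth and 0 were higher in taste bud, in a comparison where 32.6% of all features tested were higher in tooth and 52.8% differed in either direction. The median log2 fold change of the 5 genes was 0.58, against 0.21 over all 2962 features. Of the 5, nrarp entered the test through teeth alone. It had 5 teeth and 0 taste bud libraries at or above the filter minimum of 65.9 CPM on library totals. For fgfr2 there were 6 teeth and 1 taste bud library, for dld 4 and 1, and for jag1 4 and 2. Passing the filter thus already leaned to tooth for these genes, while fgf2 had 6 and 6. Differences were tested with edgeR's quasi-likelihood test on 4 group means, with Benjamini-Hochberg adjustment over all features and a threshold of 0.05. Folds were taken from the counts summed over a tissue, each sum divided by the summed TMM sizes of its libraries.

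The fgfr2 gene encodes a receptor tyrosine kinase for FGFs, of which the epithelial form is known in mammals as the receptor of FGF7 and FGF10. Its level was 107, 78.7 and 184 CPM in L. fuelleborni tooth (13, 11 and 61 counts), against 126, 42.5 and 28.7 CPM in L. fuelleborni taste bud (22, 9 and 4 counts). In M. zebra it was 123, 144 and 87.9 CPM in tooth (21, 31 and 20 counts), against 55.9, 0 and 37.1 CPM in taste bud (4, 0 and 4 counts). The tissues did not overlap in M. zebra, where tooth lay above taste bud in every library, as 36.1% of features tested did, and they overlapped in L. fuelleborni because taste bud replicate 1 lay within the range of the teeth. A count of 0 in M. zebra taste bud replicate 2 allows a level of up to 43.3 CPM (3 counts, counting error only).

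Over both species fgfr2 averaged 121 ± 39.0 CPM in tooth and 48.3 ± 42.3 CPM in taste bud (SD, n = 6 each), with a log2 fold change of 1.40 (SE 0.50, 95% interval 0.36 to 2.43, edgeR adjusted p = 0.0208). The ratio of summed counts was 3.71 without L. fuelleborni taste bud replicate 1, which held 22 of the 43 taste bud counts. Leaving out 1 library at a time ended the call in 4 of 12 fits. These were the fits without L. fuelleborni tooth replicate 4 (log2 fold change 1.15, edgeR adjusted p = 0.0764), without L. fuelleborni taste bud replicate 2 (1.24, edgeR adjusted p = 0.0583) or 4 (1.15, edgeR adjusted p = 0.0523), and without M. zebra taste bud replicate 2 (1.04, edgeR adjusted p = 0.0796).

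The nrarp gene encodes a short ankyrin repeat protein that is turned on by Notch and lowers Notch signalling, as shown in frog and mouse. Its level was 131, 107 and 90.5 CPM in L. fuelleborni tooth (16, 15 and 30 counts), against 34.3, 37.8 and 50.3 CPM in L. fuelleborni taste bud (6, 8 and 7 counts). In M. zebra it was 99.2, 129.9 and 39.6 CPM in tooth (17, 28 and 9 counts), against 13.98, 14.4 and 55.6 CPM in taste bud (1, 1 and 6 counts). Here the tissues did not overlap in L. fuelleborni, as for 26.7% of features tested with tooth higher, and overlapped in M. zebra, where tooth replicate 3 lay below taste bud replicate 3. The other 5 teeth lay above all 6 taste bud libraries. None of the 5 genes separated all 6 teeth from all 6 taste bud libraries, as 29.5% of features tested did.

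Over both species nrarp averaged 99.7 ± 33.7 CPM in tooth and 34.4 ± 17.5 CPM in taste bud (SD, n = 6 each), with a log2 fold change of 1.47 (SE 0.48, 95% interval 0.49 to 2.45, edgeR adjusted p = 0.0111). Since nrarp entered the test through teeth alone, its call, the fits below and its separation in L. fuelleborni are not independent of that. The call held when each of the 12 libraries was left out in turn, with edgeR adjusted p-values of 0.00573 to 0.0447. It was lost without the 3 libraries highest in ribosomal counts (log2 fold change 1.33, SE 0.60, edgeR adjusted p = 0.0776), a fit that leaves 1 library of L. fuelleborni taste bud. Endothelium is a tissue in which nrarp is known to be active in the mouse, and the summed level of 9 endothelial markers was 167 to 456 CPM (median 211) in tooth and 13.98 to 136 CPM (median 37.4) in taste bud. All 9 had counts in tooth and 1 had none in taste bud. Only cldn5 of them could be tested and was higher in tooth, while plvap had more counts in taste bud, 23 in tooth against 40 in taste bud. Summed oral keratinocyte markers were at 296 to 643 CPM in tooth and 939 to 4560.3 CPM in taste bud. Summed osteoclast markers were at 32.8 to 199 CPM in tooth and 0 to 7.18 CPM in taste bud, with 3 of 4 at 0 in taste bud. Of those 3, calcr and dcstamp had only 1 tooth count each, and itgb3 had 108. The 7 Schwann cell and nerve markers summed to 70.0 to 139.6 CPM in tooth and 14.4 to 257 CPM in taste bud, and of the 2 that could be tested mpz was higher in tooth and erbb3 higher in taste bud. The part of these cell types in the results for fgfr2 and nrarp was not tested.

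**Figure D1:**
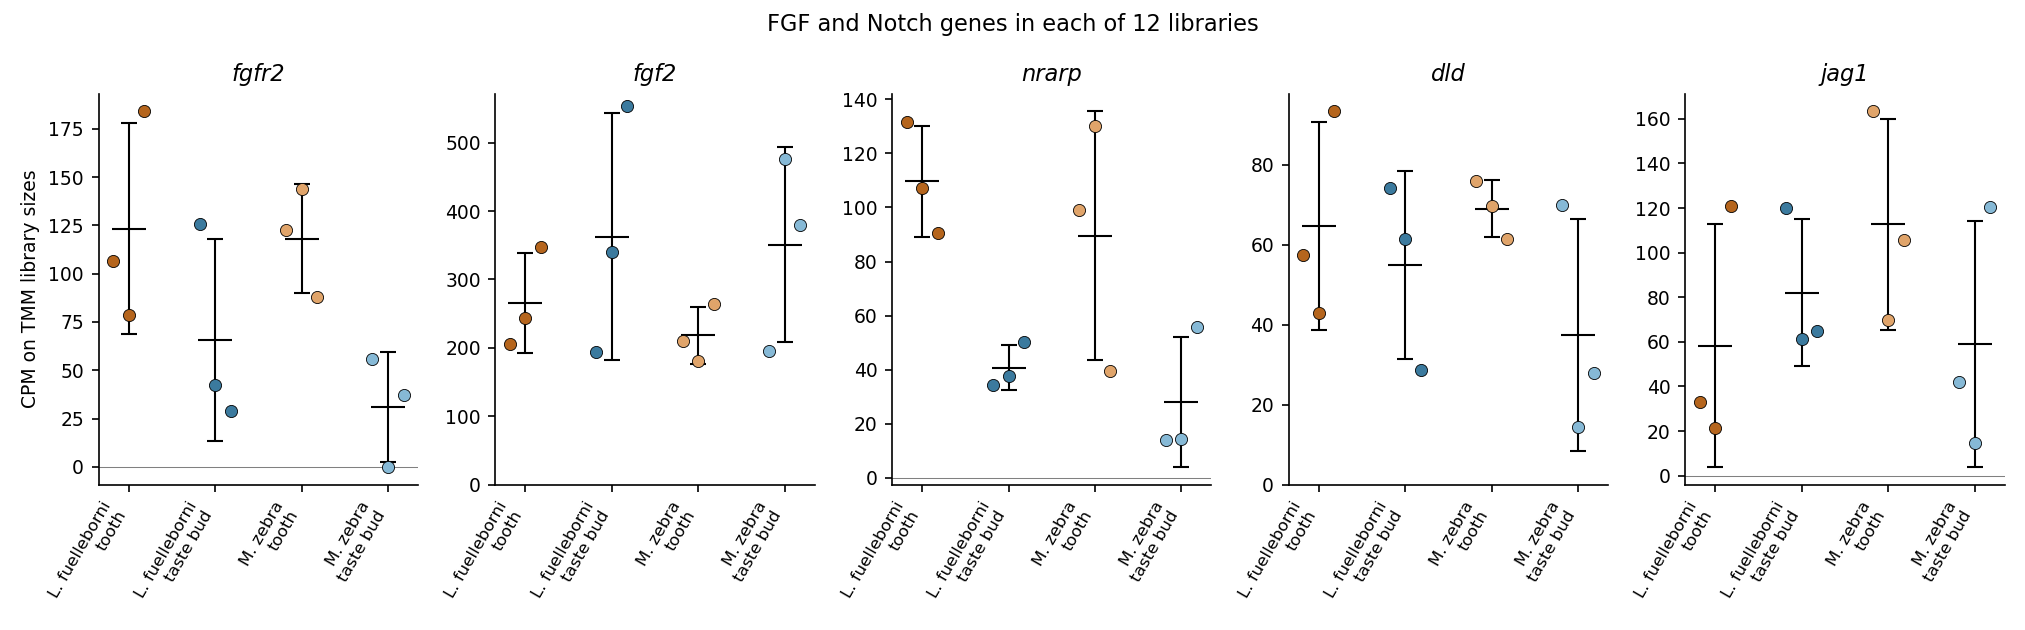
Level of each of the 5 genes in CPM (vertical axis, a scale of its own for each gene) in the 3 libraries of each group (points), with group mean and SD (bar and whiskers). The highest values of fgfr2 and nrarp are in teeth, at 184 and 131 CPM, and the tissues overlap for all 5 genes.

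The ligand gene fgf2 encodes basic FGF, a ligand that leaves cells without a signal peptide. It was at 205, 243 and 347 CPM in L. fuelleborni tooth, against 194, 340.3 and 553 CPM in L. fuelleborni taste bud. In M. zebra it was at 210.1, 181 and 264 CPM in tooth, against 196, 477 and 380.1 CPM in taste bud. Each taste bud group had 1 library as low as the teeth and 2 at or above all but the highest tooth library, so the groups overlapped. The mean over both species was 242 ± 59.3 CPM in tooth and 357 ± 146 CPM in taste bud (SD, n = 6 each), and the log2 fold change of -0.56 did not pass (SE 0.36, 95% interval -1.29 to 0.18, edgeR adjusted p = 0.194). Without the 3 libraries highest in ribosomal counts fgf2 was lower in tooth (log2 fold change -1.03, SE 0.37, edgeR adjusted p = 0.0271), and in the other 19 alternatives run it did not pass.

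The ligand gene dld is the gene called deltaD in zebrafish, where it acts in segmentation and in the choice of neural cells. Its level was 57.5, 42.9 and 93.6 CPM in L. fuelleborni tooth, against 74.3, 61.4 and 28.7 CPM in L. fuelleborni taste bud. For M. zebra the levels were 75.9, 69.6 and 61.5 CPM in tooth, against 69.9, 14.4 and 27.8 CPM in taste bud. Teeth of M. zebra had the narrowest spread of the 4 groups, at 69.0 ± 7.18 CPM (SD, n = 3), and 1 of 3 taste bud libraries of that species was within their range. The log2 fold change over both species was 0.58 (SE 0.47, 95% interval -0.39 to 1.54, edgeR adjusted p = 0.313).

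The ligand gene jag1 encodes Jagged1, a Notch ligand of the Serrate class. It was at 32.8, 21.5 and 121 CPM in L. fuelleborni tooth, against 120.0, 61.4 and 64.6 CPM in L. fuelleborni taste bud. In M. zebra it was at 163, 69.6 and 105 CPM in tooth, against 42.0, 14.4 and 121 CPM in taste bud. L. fuelleborni tooth replicate 4 had over 3 times the jag1 level of the other 2 libraries of its group. The log2 fold change over both species was 0.23 (SE 0.49, 95% interval -0.78 to 1.24, edgeR adjusted p = 0.728), and it was -0.40 without that library (edgeR adjusted p = 0.538) and -0.09 without M. zebra taste bud replicate 2 (edgeR adjusted p = 0.901). The intervals of dld and jag1 hold differences of more than 2-fold towards tooth, and that of fgf2 a difference of more than 2-fold towards taste bud.

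**Figure D2:**
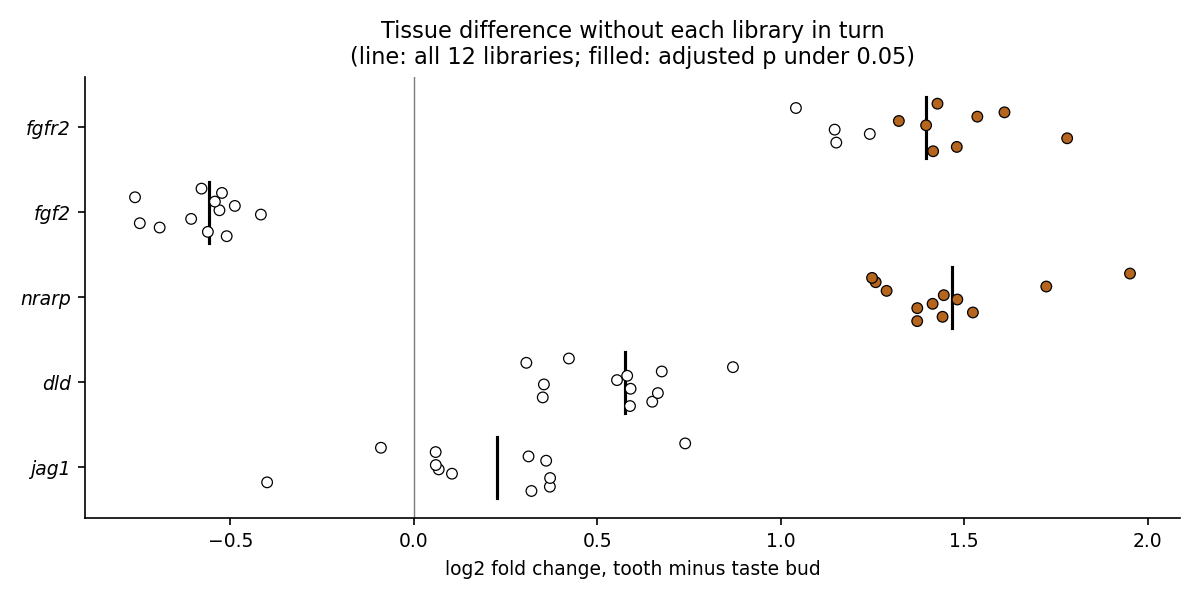
Log2 fold change of each gene, tooth minus taste bud (horizontal axis), with all 12 libraries (vertical line) and without each library in turn (points, filled where the adjusted p was under 0.05). All 12 points of nrarp and 8 of 12 of fgfr2 are filled, none of the other genes is, and jag1 lies between -0.40 and 0.74.

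Within a species, none of the 5 genes passed the test in either tissue comparison, where 38.6% of features passed in L. fuelleborni and 42.6% in M. zebra. For fgfr2 the log2 fold change was 0.92 in L. fuelleborni (SE 0.65, edgeR adjusted p = 0.276) and 1.87 in M. zebra (SE 0.77, edgeR adjusted p = 0.0510). The M. zebra value passed in 10 of 21 alternatives, among them DESeq2 (log2 fold change 2.07, adjusted p = 0.0313) and the fit on the 6 M. zebra libraries alone (2.01, edgeR adjusted p = 0.0220). For nrarp it was 1.41 in L. fuelleborni (SE 0.63, edgeR adjusted p = 0.0804) and 1.52 in M. zebra (SE 0.72, edgeR adjusted p = 0.0896), and it passed in 3 of 21 and 3 of 20 alternatives. Before adjustment, edgeR's p-value was under 0.05 for 1 of the 5 genes in L. fuelleborni (nrarp), as for 46.3% of features, and for 2 in M. zebra (fgfr2 and nrarp), as for 50% of features.

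The remaining genes had smaller differences within species relative to their errors. For fgf2 the log2 fold change was -0.43 in L. fuelleborni (SE 0.50) and -0.68 in M. zebra (SE 0.51). For dld it was 0.26 in L. fuelleborni (SE 0.62) and 0.89 in M. zebra (SE 0.71). The jag1 estimates had opposite signs, -0.37 in L. fuelleborni (SE 0.68) and 0.82 in M. zebra (SE 0.72), both within their errors of 0 at the 95% level. With library totals in place of TMM sizes, the L. fuelleborni estimate of jag1 was 0.0088.

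Whether the tissue difference itself differed between species was tested as an interaction, L. fuelleborni minus M. zebra. It was -1.19 for jag1 (SE 0.99, 95% interval -3.21 to 0.83, edgeR adjusted p = 0.754) and -0.95 for fgfr2 (SE 1.01, edgeR adjusted p = 0.803). For dld, nrarp and fgf2 it was -0.63, -0.12 and 0.25. No feature passed with edgeR (0% of 2962), where 228 (7.7%) had an unadjusted p under 0.05 and none of these was among the 5 genes. DESeq2 called 0 features and limma voom 1.

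The species were then compared within each tissue, L. fuelleborni against M. zebra. None of the 5 genes passed in tooth, where 1.52% of features did, or in taste bud, where 4.29% did. In tooth the log2 fold change was -0.81 for jag1 (SE 0.66, 95% interval -2.17 to 0.54, edgeR adjusted p = 0.889) and between -0.04 and 0.29 for the other 4 genes. In taste bud it was 1.04 for fgfr2 (SE 0.79, 95% interval -0.59 to 2.67, edgeR adjusted p = 0.5195), 0.59 for dld, 0.40 for nrarp, 0.38 for jag1 and 0.04 for fgf2. The jag1 difference in tooth was negative, and that of fgf2 positive, in all 21 alternatives. The alternatives reuse the same libraries and are not independent of each other. The taste bud difference of fgfr2 was -0.031 without the 3 libraries highest in ribosomal counts and -0.11 with that share as a covariate.

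**Figure D3:**
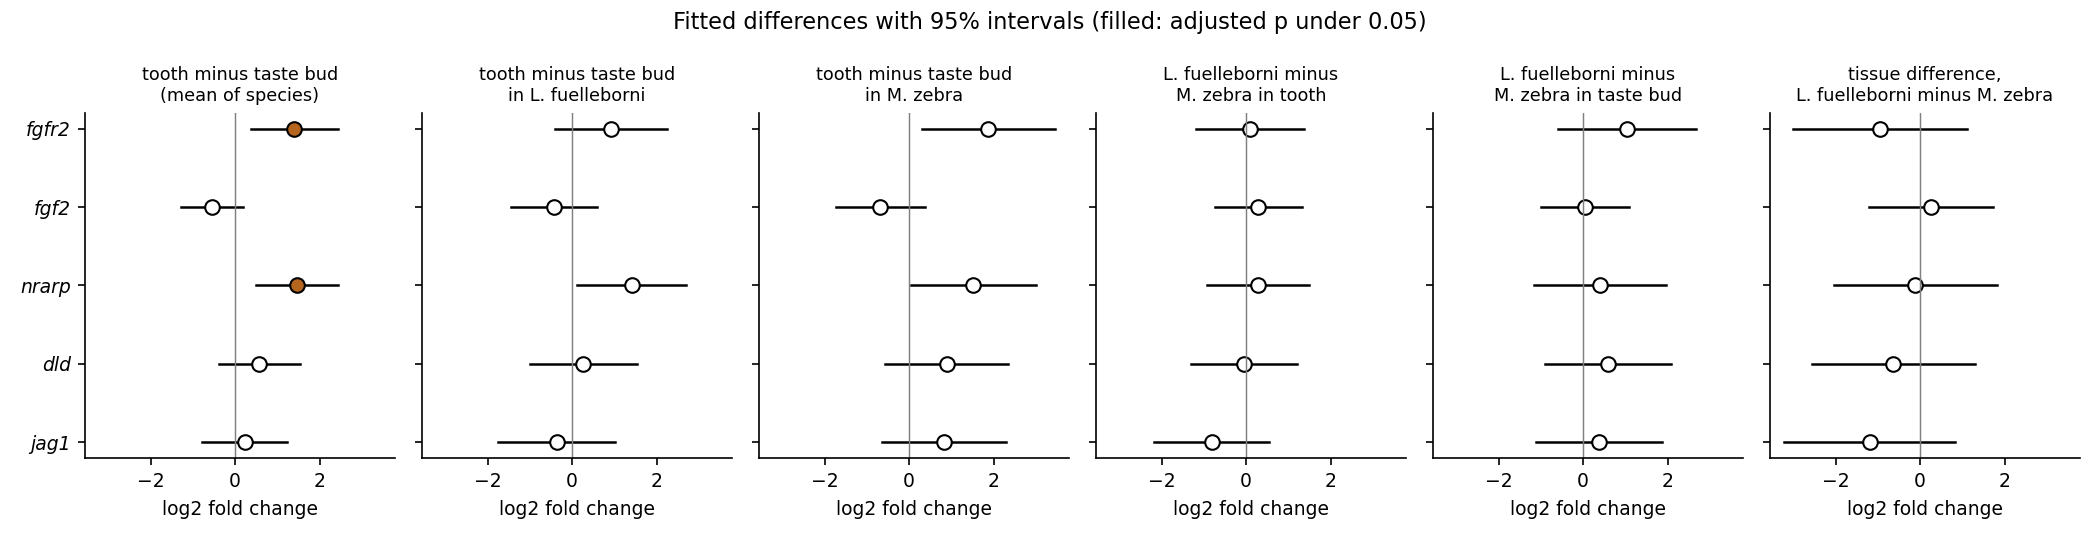
Fitted log2 fold changes (points, filled where the adjusted p was under 0.05) with 95% intervals (lines) for the 5 genes in 6 comparisons. The filled points are fgfr2 and nrarp in the comparison over both species, at 1.40 and 1.47.

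Ordered by mean level, the 4 groups fell in the same order for fgfr2 and nrarp. For fgfr2 the means were 123 ± 54.6 CPM in L. fuelleborni tooth, 118 ± 28.2 CPM in M. zebra tooth, 65.7 ± 52.5 CPM in L. fuelleborni taste bud and 31.0 ± 28.5 CPM in M. zebra taste bud (SD, n = 3 each). For nrarp they were 109.7 ± 20.5, 89.6 ± 45.96, 40.8 ± 8.40 and 28.02 ± 23.9 CPM in that order of groups. For fgf2 the order was L. fuelleborni taste bud (363 ± 180.4 CPM), M. zebra taste bud (351 ± 143 CPM), L. fuelleborni tooth (265 ± 73.4 CPM) and M. zebra tooth (218 ± 42.0 CPM). The jag1 mean was highest in M. zebra tooth (113 ± 47.3 CPM) and lowest in L. fuelleborni tooth (58.3 ± 54.3 CPM). For all 5 genes the ranges of groups next to each other in this order overlapped.

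The shape of each gene's profile over the 12 libraries was set beside that of every other tested feature, as the root mean square difference of log2 CPM after centring each gene on its own mean. This is a description, and the libraries share depth and tissue. Nearest to fgfr2 among features with a gene symbol were eef1g, an elongation factor subunit gene, and eps15, an endocytic adaptor gene (differences of 0.34 and 0.35, against a median of 1.28 over all features). Near to nrarp was cdt1, a gene of replication licensing (0.43). Those nearest to fgf2 were the RNA-binding protein genes nono and ybx1 (0.36 and 0.38), those to dld were arpc1a and tmed10 (0.31 and 0.35), and those to jag1 were slc38a10 and psmc5 (both 0.43). Among the 5 genes, the closest pair was fgfr2 and dld (0.61) and the farthest fgfr2 and fgf2 (1.46). A gene with no change over the libraries would lie at 0.50 from fgf2 and 0.56 from dld. It would lie at 0.83 from nrarp and from jag1, and at 1.06 from fgfr2. Small differences for fgf2 and dld thus partly reflect their own small changes.

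Other components of both pathways were examined from a list of 115 symbols, of which 67 matched a feature, 37 for FGF and 30 for Notch. Another 15871 features carry only a locus number, and copies of pathway genes among them are not analysed here. Of the 67, 7 were tested (the 5 genes above, spred3 and klb), 31 had at least 10 counts over the 12 libraries without passing the filter, and 29 had fewer, 16 of them with no count at all. Beside the 5 genes above, klb was called and spred3 was not.

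The klb gene, which encodes beta-klotho, in mammals the co-receptor of the hormone-like FGFs, was higher in taste bud. It entered the test only through the 3 M. zebra taste bud libraries, the only ones above the filter minimum of 65.9 CPM, so that it was tested because it was high there. Its summed count was 16 in tooth, against 36 in taste bud, and the level was 3.51-fold higher in taste bud (log2 fold change -2.25 with equal weight to both species, SE 0.72, edgeR adjusted p = 0.0104), while 20.2% of all features were higher in taste bud. Within M. zebra klb was called (-2.32, SE 0.83, edgeR adjusted p = 0.0258), as were 42.6% of features, and the call held in 14 of 20 alternatives. Within L. fuelleborni it was not called (-2.17, SE 1.19, edgeR adjusted p = 0.154). The klb level was lower in L. fuelleborni than in M. zebra in tooth (-2.55, edgeR adjusted p = 0.426) and taste bud (-2.70, edgeR adjusted p = 0.0744), without passing. Its counts were 0, 0 and 2 in L. fuelleborni tooth, against 6, 3 and 0 in L. fuelleborni taste bud. The M. zebra counts were 1, 4 and 9 in tooth, against 7, 12 and 8 in taste bud. In CPM all 3 taste bud libraries (74.2 to 173 CPM) lay above all 3 teeth (5.84 to 39.6 CPM), as for 20.4% of features. Neither this separation nor the M. zebra call is independent of how klb entered the test. Without M. zebra tooth replicate 3 the level was 6.51-fold higher in taste bud. The call over both species was lost without L. fuelleborni taste bud replicate 1 (log2 fold change -1.80, edgeR adjusted p = 0.0909). It was lost, too, without the 3 libraries highest in ribosomal counts (-1.15, edgeR adjusted p = 0.9998), a fit in which no count of L. fuelleborni was left. The inhibitor gene spred3 was at 165 ± 49.8 CPM in tooth and 165 ± 61.8 CPM in taste bud (SD, n = 6 each; log2 fold change -0.02, SE 0.38, edgeR adjusted p = 0.972), and its sign changed with the scaling.

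The 31 genes below the filter were compared by their summed counts, as a ratio of tooth over taste bud after division by summed TMM sizes, with an exact 95% counting interval, which covers counting error only and not the spread between libraries. The interval lay above 1 for 17 of 31 genes (54.8%) and below 1 for 1 (3.23%), against 34.7% and 10.7% of the 9731 features with counts in that range. No taste bud count was found for 9 of 31 (29.0%), against 8.01% of those features. The median ratio, with such genes set against 3 taste bud counts, was 2.57 for the 31 genes and 1.74 over the 9731 features. Fitted with no filter on low counts, edgeR called 12 of the 31 genes in the direction of tooth and 0 in that of taste bud, against 15.6% and 3.8% of those features. Without the 3 libraries highest in ribosomal counts the interval lay above 1 for 11 of the 31 (35.5%), against 20.2% of the 9731 features in the same libraries. With all 12 libraries the interval lay above 1 for 11 of 14 FGF genes (78.6%, median ratio 4.92). For Notch it was 6 of 17 (35.3%, median ratio 1.87), near the 34.7% of the 9731 features. The difference between these shares was not tested. The list was chosen with earlier results of these data known, so its shares are not independent of them.

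Among FGF ligands, fgf7, which in mammals is made by mesenchyme and acts on epithelium, had 28 tooth counts and 0 taste bud counts. Its bound was 5.99-fold higher in tooth (against 3 counts over the 6 taste bud libraries, as for each such bound). The counting interval of fgf7 started at 4.55. Its tooth counts were 4, 1 and 15 in L. fuelleborni and 0, 3 and 5 in M. zebra. Without L. fuelleborni tooth replicate 4 the bound was 3.83. For fgf18, known from skeletal growth in the mouse, the summed counts were 31 for tooth and 1 for taste bud, a ratio of 19.9 (3.31 to 810.4, the counting interval). Without L. fuelleborni tooth replicate 4, fgf18 had 18 tooth counts. Its 1 taste bud count lay in L. fuelleborni replicate 1, without which the bound for fgf18 was 5.13. The ratio for fgf14 was 1.497 (0.66 to 3.71). Its mean levels lay in opposite directions in the 2 species, on few counts, and this was not tested. In L. fuelleborni its mean was 23.1 CPM in tooth (11 counts) and 1.58 CPM in taste bud (1 count). In M. zebra it was 15.5 CPM in tooth (10 counts) and 33.0 CPM in taste bud (8 counts). Of the 19 ligand genes matched, 11 had no count in any library, among them fgf3, fgf4, fgf10 and fgf20, named here after their values were seen because they act in mouse tooth formation. No count allows up to 3 counts, or 9.05 to 43.3 CPM in a single library.

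Among FGF receptor genes, fgfr4 had 35 tooth counts, spread over all 6 teeth, and 0 taste bud counts. Its bound was 7.48 and its counting interval started at 5.77. Of the tooth counts, 1, 1 and 17 were in L. fuelleborni teeth and 4, 7 and 5 in M. zebra teeth. The gene of the receptor-like protein fgfrl1, which lacks the kinase part, had 62 counts from teeth and 4 from taste bud, a ratio of 9.94 (3.69 to 37.6). The ratio for fgfr3 was 1.07 (0.35 to 3.58), with 10 and 6 counts. The membrane protein gene flrt3, a modulator of FGF signalling in frog, had the same sums as fgf18, 31 and 1, with counts in all 6 teeth.

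Downstream of the receptor, the target genes etv4 and etv1 had 22 and 14 tooth counts with none from taste bud. Their bounds were 4.70 and 2.99, and their counting intervals started at 3.51 and 2.13. The feedback inhibitor genes spry1 and spred1 each had 12 tooth counts with none from taste bud, with a bound of 2.57 and an interval from 1.78. Of the 12 counts of spry1, 10 came from L. fuelleborni tooth replicate 4, which leaves 2 and no bound without it. Of the 14 counts of etv1, 8 came from L. fuelleborni tooth replicate 0, and without it the bound was 1.43. The etv4 gene kept 11 of its 22 counts without L. fuelleborni tooth replicate 4. For spry4 and il17rd the ratios were 5.77 (1.38 to 51.3) and 5.13 (1.21 to 46.003), and for spry2 1.28 (0.40 to 4.78). The interval held 1 for spry4 without L. fuelleborni tooth replicate 3, and for il17rd without tooth replicate 3 of M. zebra or taste bud replicate 4 of L. fuelleborni. With 1 library left out the ratios reached 4.96 for spry2, 10.5 for spry4 and 7.94 for il17rd.

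Among Notch ligand genes, dll1 had 18 tooth counts and dll4, in mammals foremost a ligand of vessels, had 13, both with none from taste bud. Their bounds were 3.85 and 2.78, and their counting intervals started at 2.82 and 1.95. For dll1 the bound was 2.37 without M. zebra tooth replicate 3, which held 9 of its counts. Notch receptor genes are not analysed here. The jag2 gene had 2 counts in each tissue. Of the ligases that activate ligands, mib1 had 38 and 13 counts, a ratio of 1.87 (0.98 to 3.84), and mib2 had 16 and 2, a ratio of 5.13 (1.21 to 46.003). The mib2 counts in tooth and taste bud were 13 and 0 in L. fuelleborni and 3 and 2 in M. zebra. In M. zebra its mean was 4.96 CPM in tooth and 7.91 CPM in taste bud. With 1 library left out, the interval of mib1 lay above 1 in 5 of 12 cases, while that of mib2 (ratios of 3.54 to 9.35) held 1 without L. fuelleborni tooth replicate 4 or without any 1 of the L. fuelleborni taste bud libraries.

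The genes that modify or cut the receptor had intervals that held 1. Their ratios were 1.75 (0.85 to 3.87) for the protease gene adam10, 2.14 (0.83 to 6.51) and 1.76 (0.52 to 7.60) for the gamma-secretase genes ncstn and psenen, and 0.48 (0.18 to 1.24) for the glycosyltransferase gene rfng. Leaving out L. fuelleborni taste bud replicate 1 put the intervals of ncstn (ratio 4.96) and adam10 (2.48) above 1, and the ncstn ratio was 1.18 without L. fuelleborni tooth replicate 4. The psenen ratio was 6.40 without M. zebra taste bud replicate 1. With all 12 libraries the intervals of the turnover genes numb (0.58, 0.21 to 1.58) and dtx3 (1.60, 0.68 to 4.21) also held 1. Of the nuclear complex, rbpj had a ratio of 2.35 (0.62 to 13.1). Among the Mastermind genes the ratio was 10.9 (3.53 to 54.6) for maml3 (51 and 3 counts), and the interval held 1 for maml1 (0.51, 0.24 to 1.05) and maml2 (0.80, 0.39 to 1.65).

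Of the other Notch target genes, hey1 had 32 tooth counts and 0 taste bud counts, with a bound of 6.84 and an interval from 5.25. Its counts were 4, 0 and 12 in L. fuelleborni tooth and 6, 4 and 6 in M. zebra tooth. The hes1 gene had 22 and 1 counts, a ratio of 14.1 (2.28 to 582), and without L. fuelleborni tooth replicate 4, which held 12 of them, the ratio was 8.84. Its 1 taste bud count was in L. fuelleborni replicate 4, without which the bound for hes1 was 3.86. The hes4 gene had 11 and 18 counts, a ratio of 0.39 (0.17 to 0.88), and its interval held 1 when size factors of DESeq2 or library totals were used for scaling, and without taste bud replicate 1 of L. fuelleborni or 3 of M. zebra. Both hey1 and dll4 are known to be active in endothelium of the mouse, and the part of the endothelial markers given with nrarp in these counts was not tested either.

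**Figure D4:**
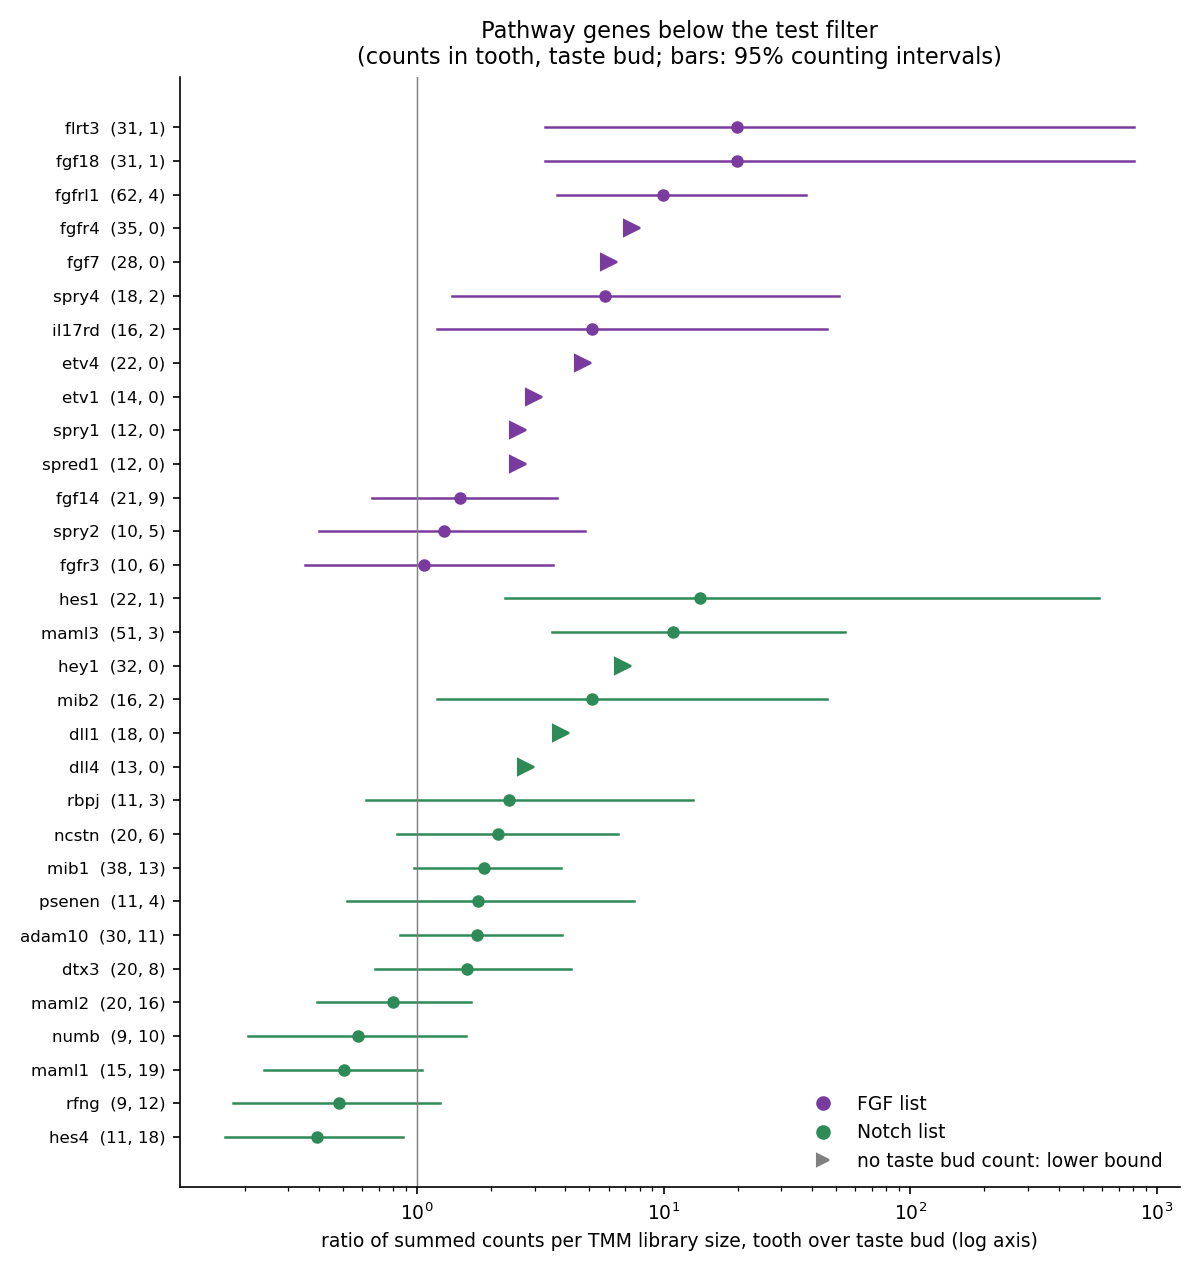
Ratio of summed counts, tooth over taste bud (horizontal log axis), for the 31 pathway genes below the test filter, with counts in tooth and in taste bud after each name. Points with lines are ratios with 95% counting intervals and triangles are lower bounds for the 9 genes with no taste bud count. The interval or bound lies above 1 for 11 of 14 FGF genes (78.6%) and 6 of 17 Notch genes (35.3%). The interval lies above 1 for 34.7% of the 9731 features with counts in that range.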

How the data were processed

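The authors deposited whole-number read counts for each gene feature and library, unnormalized, in a single table. Tools named in the submitters' processing notes, without role or order, are HTSeq 0.6.1, TopHat2 2.0.9, SAMtools 0.19, limma 3.20.9 and edgeR 3.6.8. On build, annotation and strand setting, nothing is given in the sources used here. Totals of 72226 to 300663 counts per library limit precision for low genes. Libraries of a group differed by more than sampling noise (chi-square per degree of freedom 2.81 to 17.6).

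In R 4.3.3 with edgeR 4.0.16, filterByExpr (4 groups, count minimum 10 in at least 3 libraries after depth scaling, total minimum 15) kept 2962 features. A feature could pass through the libraries of a single group. TMM factors and a quasi-likelihood model of 4 group means, with no block, were fitted to all 12 libraries, and 6 contrasts were tested, two-sided, with Benjamini-Hochberg adjustment over the kept features. The procedure was tested on simulated data. Alternatives used DESeq2 1.42.0, limma 3.58.1 (voom), other scalings, no filter, a ribosomal covariate or fewer libraries. Log2 CPM in the profile comparison used a prior count of 2. Pathway genes were named when they were tested or had at least 10 counts, and the 2 most similar profiles were named for each gene, of which 1 is not reported here. The members and gene lists were chosen with earlier results of these data known.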

Additional observations from a re-analysis of the deposited data

How the results depend on the processing

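Low counts limit these results, since many pathway genes had a few counts per library. For the log2 fold changes, tooth over taste bud in both species, the call of nrarp held in all but the fit without the 3 libraries highest in ribosomal counts (1.33), where fgf2 passed (-1.03), and jag1 and spred3 changed sign (-0.26 and 0.29). The sign of spred3 also changed with DESeq2 size factors (0.19), library totals (0.32), DESeq2 (0.18) and no filter (0.00098). Leaving out 1 library at a time gave 1.04 to 1.78 for fgfr2 and -0.40 to 0.74 for jag1 and -0.22 to 0.16 for spred3.

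In L. fuelleborni, nrarp passed with DESeq2 size factors (1.64), library totals (1.76) and DESeq2 (1.66), jag1 was 0.0088 with library totals, and dld ranged from -0.20 to 0.47 with 1 library left out. In M. zebra, fgfr2 passed with DESeq2 size factors (2.04), library totals (2.14), DESeq2 (2.07), voom (2.17), the 3 libraries left out (1.86), the ribosomal covariate (1.77) and the 6 libraries alone (2.01), and nrarp with library totals (1.81). With 1 library left out these were 1.29 to 2.35 for fgfr2 and 1.16 to 2.55 for nrarp. Library totals moved the median of all features over both species from 0.21 to 0.53 and DESeq2 size factors to 0.41.

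For L. fuelleborni against M. zebra in tooth, fgfr2 was -0.084 with no filter, -0.33 without the 3 libraries and -0.62 with the covariate, and dld was 0.0495 in the 6 libraries alone. Leaving out 1 library gave -0.41 to 0.15 for dld, -0.31 to 0.30 for fgfr2 and -0.11 to 0.63 for nrarp. In taste bud, fgf2 was -0.021 with voom and ranged from -0.29 to 0.37, fgfr2 was -0.031 without the 3 libraries and -0.11 with the covariate, dld was -0.23 and -0.12, and jag1 was -0.9975 with the covariate. The interaction of fgf2 was -0.023 with no filter and -0.73 without the 3 libraries, and with 1 library left out it was -0.070 to 0.62 for fgf2 and -1.20 to 0.24 for nrarp. The cause of these changes was not tested.

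Called features without a filter were 3327 over both species, 1881 in L. fuelleborni, 124 and 229 between species in tooth and taste bud, and 2 in the interaction, from 20692 tested. The 3 libraries left out gave 744 in L. fuelleborni and 18 in the interaction. In taste bud between species there were 43 with the covariate, 81 in the 6 libraries alone and 64 to 230 with 1 library left out, in tooth 27 to 91, and in the interaction 0 to 1. Of the 31 low pathway genes, 11 had an interval above 1 without the 3 libraries, and 0 had one below 1 with DESeq2 size factors and with library totals, or 0 to 2 with 1 library left out. These alternatives for low genes were chosen after seeing the data.

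The labels do not say whether a replicate number shared by 2 tissues of a species marks the same animal. For such pairs the correlation of deviations from group means was -0.0075 (L. fuelleborni 4), 0.052 (M. zebra 1) and 0.24 (M. zebra 3). Pairs of the same number across species, which cannot share an animal, had -0.18 to 0.17. With 3 libraries per group these values cannot decide whether libraries were paired. With the replicate block in voom, fgfr2 in M. zebra was 2.12 and fgf2 between species in taste bud -0.030, 1 feature was called in the interaction, as without the block, and 1605 features over both species against 1590 with no block.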
